A study of Homo sapiens with 14 samples.

Results

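The contractile genes of myofibroblasts were followed through every group of an RNA-seq study of IMR90 cells, primary fibroblasts of fetal human lung. The set holds 10 genes listed by name (ACTA2, ACTG2, MYH11, MYL9, TPM1, TPM2, CNN1, TAGLN, LMOD1 and DES) among the 24638 genes that all 3 kinds of deposited table list, and all 10 were found in each kind. The isolates I79 and I10 were each sampled young (proliferating) and old (passaged into replicative senescence, the lasting growth arrest of cells that have divided many times). A further I79 group had been given ICM (inflachromene), a compound known to bind HMGB1 and HMGB2, abundant DNA-bending proteins of chromatin, and the remaining groups were wild type (WT) and HMGB2 KD, in which HMGB2 was knocked down with siRNA. All groups were untransformed IMR90 cells grown in culture. The labels give neither the isolate behind WT and HMGB2 KD, nor whether WT received a control siRNA, nor the dose and time of ICM.

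A myofibroblast is a fibroblast that has assembled a contractile apparatus like that of smooth muscle, as happens in wound repair and fibrosis. Its force comes from myosin pulling on filaments of smooth muscle actin. Tropomyosins, calponin and transgelin lie along or bundle these filaments, and phosphorylation of the regulatory light chain switches the myosin on. Many of these genes are controlled by serum response factor (SRF), which binds a short A/T-rich DNA element called the CArG box together with the coactivators myocardin (MYOCD) or MRTFA and MRTFB, and TGF-beta is the best known signal that raises them in lung fibroblasts.

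Promoters of the smooth muscle actins ACTA2 and ACTG2 are shown because several results below turn on these genes and because the element is visible in both. Sequences are those of RefSeq (table built on GRCh38.p14), placed on GRCh37 by an exact match. They run 5′ to 3′ up to the base before the annotated start, and capitals mark CArG boxes. The ACTG2 stretch is chr2:74119995-74120134 on the plus strand, and the ACTA2 stretch, from the proximal of its annotated starts, is chr10:90712531-90712681 on the minus strand.
ACTG2: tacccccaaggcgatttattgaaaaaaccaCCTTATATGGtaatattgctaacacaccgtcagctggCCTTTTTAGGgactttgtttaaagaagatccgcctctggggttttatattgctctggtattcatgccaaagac
ACTA2: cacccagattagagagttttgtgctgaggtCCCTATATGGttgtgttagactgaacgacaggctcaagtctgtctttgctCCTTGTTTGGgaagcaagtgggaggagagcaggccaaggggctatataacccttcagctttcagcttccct

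The ACTG2 promoter held 2 CArG boxes, starting 110 and 73 bases before the start, and the proximal ACTA2 promoter held 2 with a single G or C in the A/T-rich centre, starting 121 and 71 bases before it. Both strands were searched over the window from 250 bases before to 50 after each start. Of all 35116 promoters of that length, 454 (1.29%) held a CArG box without a mismatch and 2854 (8.13%) held one with at most 1 G or C inside. In the other member promoters of the table (the distal ACTA2 start, CNN1, LMOD1, TPM1 and both TPM2 starts) neither form was found. For TPM1 the table's start lies 5731 to 5804 bases downstream of the starts of transcripts 201, 206 and 220. These were its transcripts with at least 5% of its counts in some table, and their promoter was thus not searched. The table held 6 of the 10 genes and had no entry for TAGLN, MYH11, MYL9 and DES. A match is a description of the letters, and the data hold no measure of binding.

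The WT and HMGB2 KD tables held between 33561766 and 41168932 counts per library. Estimated counts summed to between 14991385 and 20632959 per old or young table. The ICM libraries had 13290131 and 10971132 reads. Old and young groups had 1 table each although the labels list 2 replicates, so these values carry no SD. All 8 fibroblast markers were detected in every library, with a summed level between 10631 and 30263 CPM (counts scaled to library size). The 6 cardiac markers summed to at most 1.27 CPM and 8 skeletal muscle markers to at most 6.93 CPM. The 9 smooth muscle markers, of which MYH11, DES, LMOD1 and ACTG2 belong to the contractile set, were partly present. They summed to between 188 CPM (first WT library) and 783 CPM (I79 young). Of these markers 4 were above 1 CPM in each WT and HMGB2 KD library, and 6 in all old, young and ICM samples. CASQ2 was at 0 in 7 of the 10 libraries or tables. The 6 pericyte markers summed to between 214 CPM (second ICM library) and 928 CPM (first HMGB2 KD library). Fewer contractile cells and less RNA per cell cannot be told apart in such bulk samples.

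Levels of the members were compared with each other only per length of transcript. In the deposited TPM values (a relative abundance corrected for transcript length) TAGLN led in all 4 old and young tables, from 1416 TPM in I10 young to 2720 TPM in I10 old. MYL9 and TPM1 came next, at 829 to 1310 TPM and 674 to 1100 TPM. TPM1 stood above MYL9 in both young tables and below it in both old ones. ACTA2 (374 to 736 TPM) stood above ACTG2 (311 to 564 TPM) in each table, by less than the difference of either gene between tables. TPM2 followed at 177 to 298 TPM, CNN1 at 59.96 to 96.8 TPM and LMOD1 at 40.7 to 72.0 TPM. MYH11 and DES closed the order at 0.606 to 8.42 TPM and 0.813 to 5.89 TPM. Summed over the set, TPM went from 5185 (young) to 4883 (old) for I79 and from 4626 to 6414 for I10.

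Knockdown of HMGB2 was accompanied by a rise of 7 of the 8 contractile genes that could be tested. ACTA2, TAGLN and CNN1 rose most, each by more than 3-fold between group means, and ACTG2, TPM1, LMOD1 and MYL9 rose by 1.98-fold to 2.95-fold. TPM2 did not pass. Calls required a Benjamini-Hochberg adjusted p under 0.01, over all genes, and a log2 fold change beyond 0.6 in either direction in edgeR's quasi-likelihood test. In this test 5.20% of the 15338 genes were called in either direction and 2.86% were called higher. The targeted gene, HMGB2, had 929 and 1021 counts (27.1 and 27.3 CPM) with WT and 118 and 145 counts (3.22 and 3.64 CPM) after knockdown, a log2 fold change of -2.99 (SE 0.16, edgeR adjusted p 8.28e-07).

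**Figure D1:**
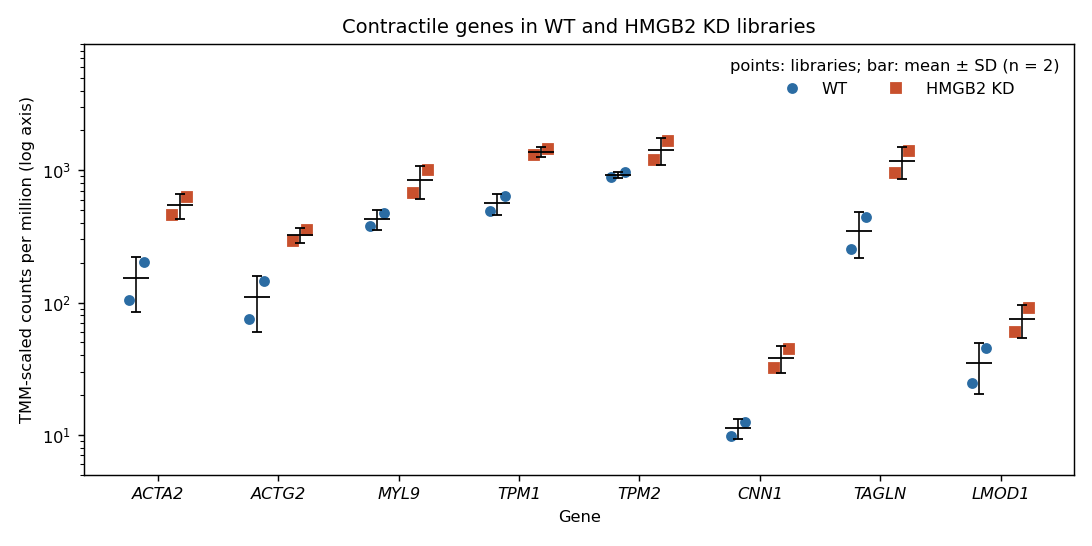
TMM-scaled CPM (log axis) of the 8 tested contractile genes, with 1 point per library and the mean ± SD of each group (n = 2). Both HMGB2 KD libraries lie above both WT libraries for each gene shown, and the WT libraries of ACTA2 and ACTG2 lie nearly 2-fold apart (1.91 and 1.94).

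Among the actins, ACTA2 (ENSG00000107796, chromosome 10, 90694831 to 90751096 of GRCh37), the smooth muscle alpha actin by which myofibroblasts are usually recognised, read 105 and 201 CPM in the WT libraries, whereas those of HMGB2 KD read 462 and 628 CPM. WT averaged 153 ± 67.9 CPM and HMGB2 KD 545 ± 117 CPM (SD, n = 2). The log2 fold change was 1.83 (SE 0.24, edgeR adjusted p 0.000356). The groups did not overlap, and the lower knockdown library was 2.30-fold above the higher WT library. ACTG2 (chromosome 2, 74119441 to 74146992), the gamma actin of visceral smooth muscle, read 74.9 and 146 CPM in the WT libraries, whereas those of HMGB2 KD read 294 and 355 CPM. Its log2 fold change was 1.56 (SE 0.23, edgeR adjusted p 0.000761). For both actins the second WT library was the higher one, by 1.91-fold and 1.94-fold, so the spread within WT was wide.

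MYL9 (chromosome 20, 35169900 to 35179850), the regulatory light chain of smooth muscle myosin, was measured at 376 and 478 CPM for WT, while the knockdown libraries reached 678 and 1011 CPM. The rise was 0.98 on the log2 scale (SE 0.19, edgeR adjusted p 0.00417). MYH11 (chromosome 16, 15796992 to 15950885), the heavy chain of the same motor and a marker of differentiated smooth muscle, was listed at 0 in all 4 libraries and was not tested. A listed 0 does not by itself set the level of a gene here. Of 6345 genes with at least 20 CPM in every old and young table, 86 (1.36%) were listed at 0 in these 4 libraries. Among them was ZYX, a focal adhesion gene with 252 to 335 CPM in the old and young tables. MYH11 itself was not among the 6345, with 3.74 CPM in I79 old and 2.71 CPM in I10 old.

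Tropomyosins, coiled coils that run along the actin filament, behaved unequally in size. TPM1 (chromosome 15, 63334819 to 63364114) was at 492 and 634 CPM for WT, while the knockdown libraries reached 1296 and 1457 CPM, a log2 fold change of 1.29 (SE 0.16, edgeR adjusted p 0.000242). TPM2 (chromosome 9, 35681989 to 35690053) was already high for WT, at 884 and 962 CPM, and reached 1194 and 1662 CPM with the knockdown. Its log2 fold change of 0.63 (SE 0.17) did not pass the 0.01 threshold (edgeR adjusted p 0.0278), although both knockdown libraries were above both WT libraries. Per length of exon TPM2 was the highest member in all 4 libraries.

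CNN1 (chromosome 19, 11649582 to 11661138) encodes calponin, an actin-binding inhibitor of the myosin ATPase. It was low, at 9.87 and 12.6 CPM for WT, while the knockdown libraries held 32.2 and 44.6 CPM, with a log2 fold change of 1.77 (SE 0.18, edgeR adjusted p 5.64e-05). Here the WT libraries lay close together (1.28-fold apart). TAGLN (chromosome 11, 117070086 to 117078180), which encodes transgelin or SM22, an actin-bundling protein and a common reporter of SRF activity, went from 256 and 444 CPM (WT) to 947 and 1405 CPM (HMGB2 KD). The log2 fold change was 1.75 (SE 0.24, edgeR adjusted p 0.000402).

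LMOD1 (chromosome 1, 201865584 to 201915676), leiomodin, nucleates actin filaments in smooth muscle. It went from 24.5 and 45.2 CPM (WT) to 60.04 and 90.3 CPM (HMGB2 KD), a log2 fold change of 1.11 (SE 0.24, edgeR adjusted p 0.00804). DES (chromosome 2, 220283099 to 220291457), the muscle intermediate filament desmin, had 3 and 5 counts in WT and 6 and 19 in HMGB2 KD, and was too low to be tested. Over the tested members, both knockdown libraries were above both WT libraries in 8 of 8, against 27.4% of all genes tested.

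The spread within WT was common to the set. The second WT library exceeded the first in each of the 8 tested members, with a median log2 ratio of 0.58 (0.12 to 0.95), and 5.93% of all tested genes differed at least as much between the WT libraries in either direction. The second HMGB2 KD library likewise exceeded the first, with a median log2 ratio of 0.47 (0.17 to 0.58). Without the second HMGB2 KD library 4 members (ACTA2, TAGLN, CNN1, TPM1) were called, while MYL9, ACTG2 and LMOD1 were not, and 312 genes in all were called in place of 797. Without the first WT library LMOD1 was not called, and the DESeq2 Wald test called TPM2 but neither ACTG2 nor LMOD1. Summed fibroblast markers stood in the same order, at 17165 and 23156 CPM (WT) and 24969 and 30263 CPM (HMGB2 KD). Most of that sum was COL1A1 and COL1A2, and of the 8 markers 5 were below 0, with a median log2 fold change of -0.088, COL1A1 and PDGFRB called higher and COL3A1 (-1.18) called lower. Of the pericyte markers, 2 of 6 pericyte markers (CSPG4, NOTCH3) were called higher, while their summed level was 887 and 781 CPM for WT against 928 and 821 CPM for the knockdown. The part of either in these results was not tested.

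Reads of some members can be shared with genes that overlap them, and whether strand was used in counting is not stated. In TAGLN 47.8% of exon bases overlap other genes, most of all ENSG00000280143 on the same strand and next PCSK7 on the opposite strand. The share is 36.2% in ACTA2 (mainly the antisense transcript ACTA2-AS1), 22.7% in TPM1, 13.6% in LMOD1, 7.32% in MYH11 and 4.18% in DES. Of the ACTA2 exon bases 380 overlap the protein-coding gene FAS on the opposite strand. CNN1, TPM2, MYL9 and ACTG2 overlap no exon of another gene. The last 4 genes also shared at most 0.138% of the 50-base words of their main transcript with any other gene, so the actin ACTG2 could be told from ACTA2 by words of that length. Counted on either strand, this share was 82.4% in TAGLN, 30.1% in ACTA2 and 12.65% in TPM1. It was 12.4% in MYH11, 10.1% in LMOD1 and 2.64% in DES.

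Passage into senescence was not followed by a common movement of the set. Over both isolates LMOD1 rose and MYH11 fell, and the other 8 members were not called. In this edgeR fit, with isolate as a covariate, 9.57% of 15116 genes were called at the same thresholds. The 2 isolates were the replicates, which left 1 residual degree of freedom. Of the members not called, DES, TAGLN, CNN1 and MYL9 passed an adjusted p of 0.05 with a fold change over the minimum, and ACTA2, ACTG2, TPM1 and TPM2 did not. The summed fibroblast markers of I79 were at 24283 CPM in young and 16408 CPM in old cells, those of I10 at 22438 and 22008 CPM, and LUM was called higher, 1 of 8. Of the markers of other cell types NOTCH3, TEK (1.24) and CD68 (2.37) were called higher. They were 1 each of the 6 pericyte, 5 endothelial and 3 leukocyte markers. The endothelial CDH5 and the T cell marker CD3E were at 0 in all 4 tables. Summed pericyte markers went from 289 to 354 CPM (I79) and from 260 to 406 CPM (I10) between young and old. The endothelial sum went from 95.9 to 221 CPM and from 66.4 to 167 CPM, and the leukocyte sum from 21.6 to 158 CPM and from 23.3 to 84.7 CPM. The part of these in the results was not tested.

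**Figure D2:**
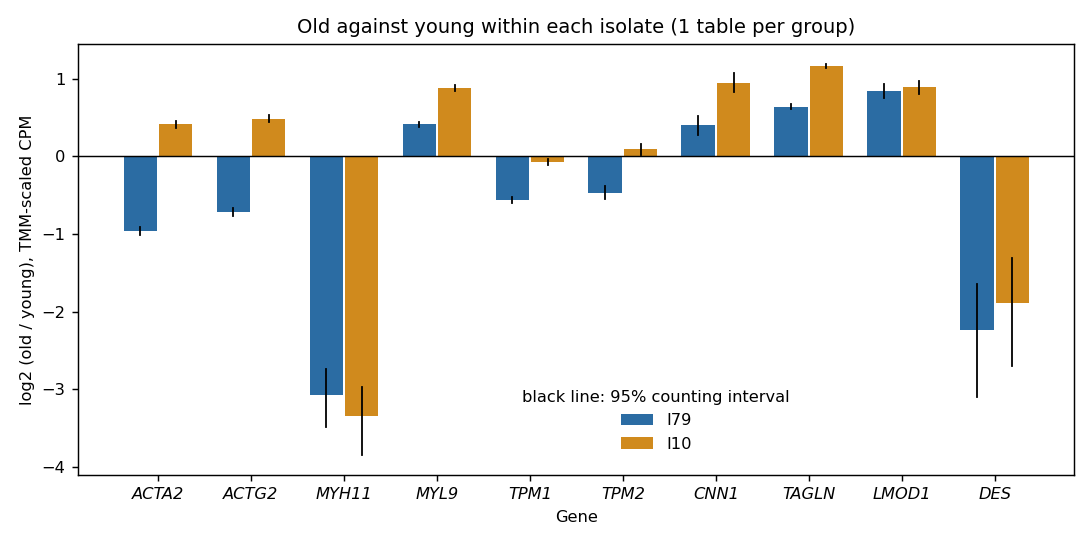
Log2 ratio of old to young TMM-scaled CPM for the 10 members in I79 (blue) and I10 (orange), from 1 table per group, with black lines for the 95% counting interval. ACTA2, ACTG2 and TPM2 point down in I79 and up in I10, MYH11 and DES are far below 0 in both, and MYL9, CNN1, TAGLN and LMOD1 are above 0 in both.

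ACTA2 stood at 523 CPM in I79 young and 269 CPM in I79 old, and at 379 CPM in I10 young and 505 CPM in I10 old. The log2 ratio of old to young was -0.96 in I79 (95% counting interval -1.01 to -0.91) and 0.41 in I10 (0.37 to 0.46). Pooled over the isolates it was -0.27 (SE 0.34, edgeR adjusted p 0.571), a value that describes neither isolate. ACTG2 had the same signs, from 463 to 283 CPM (I79) and from 347 to 485 CPM (I10). Its log2 ratios were -0.71 (-0.76 to -0.66) and 0.48 (0.44 to 0.53), and the pooled value was -0.11 (SE 0.30, edgeR adjusted p 0.797).

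Myosin genes differed in direction. MYH11 had 504 estimated counts in I79 young and 69 in I79 old, and 547 in I10 young and 49 in I10 old. This was 32.3 and 3.74 CPM in I79 and 28.5 and 2.71 CPM in I10, a fitted log2 fold change of -3.24 (SE 0.17, edgeR adjusted p 0.00324). Both old tables were below both young ones by a wide margin. MYL9 went from 667 to 889 CPM (I79) and from 581 to 1073 CPM (I10). The fitted change of 0.65 (SE 0.17, edgeR adjusted p 0.0454) was not called.

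Total TPM1 went from 868 to 587 CPM (I79) and from 766 to 729 CPM (I10), with a pooled log2 fold change of -0.32 (SE 0.17, edgeR adjusted p 0.218). TPM2 was at 161 and 117 CPM in I79 and at 166 and 176 CPM in I10, with log2 ratios of -0.47 (-0.55 to -0.38) and 0.09 (0.02 to 0.16) and a pooled value of -0.19 (SE 0.16, edgeR adjusted p 0.414). For both tropomyosins the tables of young and old I10 cells lay close together.

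The members CNN1, TAGLN and LMOD1 were each higher in the old than in the young table of both isolates. CNN1 went from 56.1 to 74.1 CPM (I79) and from 45.8 to 88.4 CPM (I10), with a fitted change of 0.68 (SE 0.16, edgeR adjusted p 0.0347). TAGLN went from 774 to 1204 CPM and from 735 to 1653 CPM, with a fitted change of 0.90 (SE 0.19, edgeR adjusted p 0.0258). Neither was called. LMOD1, at 103 and 184 CPM in I79 and 92.3 and 171 CPM in I10, had a fitted change of 0.87 (SE 0.10, edgeR adjusted p 0.00708) and was called.

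DES went from 5.76 to 1.14 CPM (I79) and from 5.01 to 1.27 CPM (I10), on 90 and 21 estimated counts and 96 and 23. Its fitted log2 fold change of -2.15 (SE 0.31) was just short of the threshold (edgeR adjusted p 0.0107). The table of I79 old and that of I10 old held close to the same low amount of both MYH11 and DES.

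The 3 members ACTA2, ACTG2 and TPM2 had opposite directions in the isolates, each with both counting intervals off 0. Among all genes tested 19.1% had opposite directions and 2.85% had them with both intervals off 0. Counting intervals narrow as counts rise, so the second share depends on depth. The 3 members had between 2153 and 9131 estimated counts per table. The log2 change was lower in I79 than in I10 for 9 of the 10 members, MYH11 being the exception, with a median difference of -0.51. Over all 15116 genes it was lower in I79 for 49.1%, with a median difference of 0.0080. With 1 table per isolate and age the difference between isolates could not be tested.

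Estimated counts of single transcripts showed that the tropomyosins and ACTA2 also differed in the transcripts that made up their totals. The ACTA2 transcripts with at least 5% of its counts in some table had 2 starts. One was the proximal start shown above and the other a distal one 38566 bases upstream (transcript 202), whose promoter held no CArG box. The distal transcript made up 0.988% of the gene's estimated counts in I79 young (95% exact binomial interval 0.788 to 1.23) and 12.4% in I79 old (11.5 to 13.3), and 2.24% in I10 young (1.90 to 2.595) and 4.56% in I10 old (4.15 to 5.02). In estimated counts this was 80.8 and 613 in I79 and 162 and 417 in I10, while the proximal transcript 201 went from 8012 to 4202 in I79 and from 7022 to 8640 in I10. The opposite directions of total ACTA2 in the isolates were those of the proximal transcript. These intervals cover counting error only, as do all intervals here, since reads carry no molecular identifiers and their assignment to transcripts has an error of its own. ACTA2 also shares 380 exon bases with FAS on the opposite strand, and the part of that overlap in the distal share was not tested.

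TPM1 and TPM2 are each spliced into several proteins through exons that replace one another. The main transcripts of TPM1, 206 and 201, differed in exons 2 and 6, and transcripts 201 and 202 of TPM2 in exon 6. These exons are shown because their shares differed between young and old tables. They are read from GRCh37 5′ to 3′ on the gene's own strand (TPM1 plus, TPM2 minus), and capitals mark the positions at which the exons of a pair differ.
TPM1 exon 2 of 206, chr15:63336226-63336351: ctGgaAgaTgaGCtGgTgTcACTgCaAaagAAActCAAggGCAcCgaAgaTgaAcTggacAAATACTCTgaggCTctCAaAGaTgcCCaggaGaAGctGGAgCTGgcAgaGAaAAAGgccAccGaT
TPM1 exon 2 of 201, chr15:63335905-63336030: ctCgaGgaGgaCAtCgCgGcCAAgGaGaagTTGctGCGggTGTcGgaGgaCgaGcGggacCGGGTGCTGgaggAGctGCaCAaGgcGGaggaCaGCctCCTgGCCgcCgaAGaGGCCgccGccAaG
TPM1 exon 6 of 206, chr15:63353397-63353472: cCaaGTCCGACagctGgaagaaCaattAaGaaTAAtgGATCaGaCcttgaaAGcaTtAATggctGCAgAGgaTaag
TPM1 exon 6 of 201, chr15:63353912-63353987: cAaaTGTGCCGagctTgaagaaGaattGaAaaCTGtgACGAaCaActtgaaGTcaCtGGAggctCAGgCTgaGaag
TPM2 exon 6 of 201, chr9:35684729-35684804: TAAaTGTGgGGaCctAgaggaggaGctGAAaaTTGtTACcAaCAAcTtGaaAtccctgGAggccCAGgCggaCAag
TPM2 exon 6 of 202, chr9:35685061-35685136: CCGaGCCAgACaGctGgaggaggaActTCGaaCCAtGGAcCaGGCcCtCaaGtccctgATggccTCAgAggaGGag

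Exons of a pair have the same length (126 bases for exon 2 of TPM1 and 76 bases for each exon 6) and are 49.2%, 56.6% and 52.6% identical. Over all transcripts of TPM1 that hold either form of exon 6, the form of transcript 206 made up 48.4% in I79 young and 29.1% in I79 old (interval 28.2 to 30.04), and 49.3% in I10 young and 37.8% in I10 old (36.9 to 38.7). For exon 2 the form of 206 made up 66.7% and 49.9% in I79 and 67.1% and 62.3% in I10. In TPM2 the exon 6 of transcript 201 made up 54.8% in I79 young and 31.7% in I79 old (29.4 to 34.0), and 59.4% in I10 young and 45.6% in I10 old (43.7 to 47.6). All 3 shares were lower in the old than in the young table of both isolates, and all 3 were lowest in I79 old. Transcripts with either exon 6 held 80.4% of TPM2 counts in I79 young and 73.1% in I79 old. In I10 they held 80.1% (young) and 79.3% (old). The TPM2 transcript 203, which retains an intron, went from 11.8% to 19.9% of the gene in I79 and from 12.4% to 13.9% in I10. With 1 table per group no test was run.

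**Figure D3:**
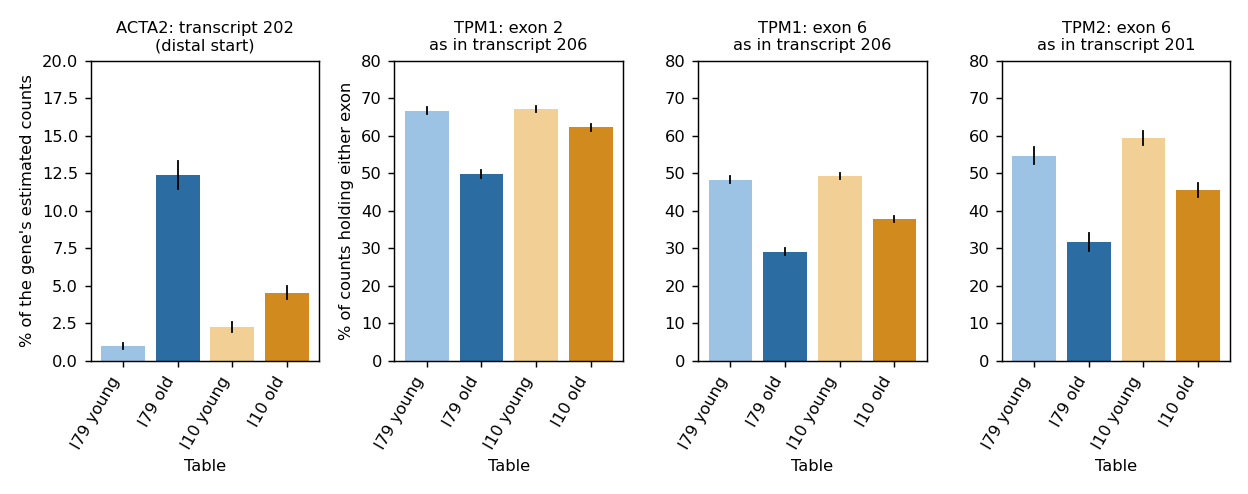
Share of the distal ACTA2 transcript in the gene's estimated counts (first panel, axis to 20%) and of the named exon among estimated counts that hold either exon of a pair (other panels, axis to 80%), with 95% exact binomial intervals. The distal ACTA2 share is highest, and each exon share lowest, in I79 old, at 12.4%, 49.9%, 29.1% and 31.7%.

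For 5 other members the main transcript made up most of the gene's counts in every old and young table. LMOD1-201 made up all of LMOD1, CNN1-201 94.1% to 95.5% of CNN1, ACTG2-201 89.6% to 94.3% of ACTG2, TAGLN-202 55.7% to 59.1% of TAGLN and MYL9-202 56.6% to 61.7% of MYL9. From young to old the ACTG2-201 share went from 89.6% to 93.2% in I79 and from 90.7% to 94.3% in I10. That of MYL9-202 went from 56.6% to 61.7% and from 60.4% to 61.4%. MYH11-202 made up 74.7% of MYH11 in I79 young and 78.1% in I79 old, but 73.7% in I10 young and 48.1% in I10 old (95% interval 32.5 to 61.7, on 49 estimated counts). DES-201 made up 89.5% and 92.3% of DES in the young tables and all of it in the old ones, where 21 and 23 estimated counts were left.

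ICM-treated I79 libraries came in a table of another kind, with reads per gene and transcript region, and were set against I79 young without a test. By these values 6 members lay more than 0.6 below I79 young on the log2 scale and TPM2 and DES more than 0.6 above it, with a median log2 ratio of -1.497. Of the 13491 genes compared 59.2% lay past 0.6 in either direction, and the WT libraries, which received no ICM by their labels, put 40.7% of 12908 genes and all 9 members other than MYH11, which is listed at 0 there, past 0.6 against the same table, with a median of -1.69 over the 9. Treatment and counting cannot be told apart in these ratios, and with WT as the control the median over these 9 was 0.039 in place of -1.497 over all 10. Between the ICM libraries themselves the values lay close together.

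**Figure D4:**
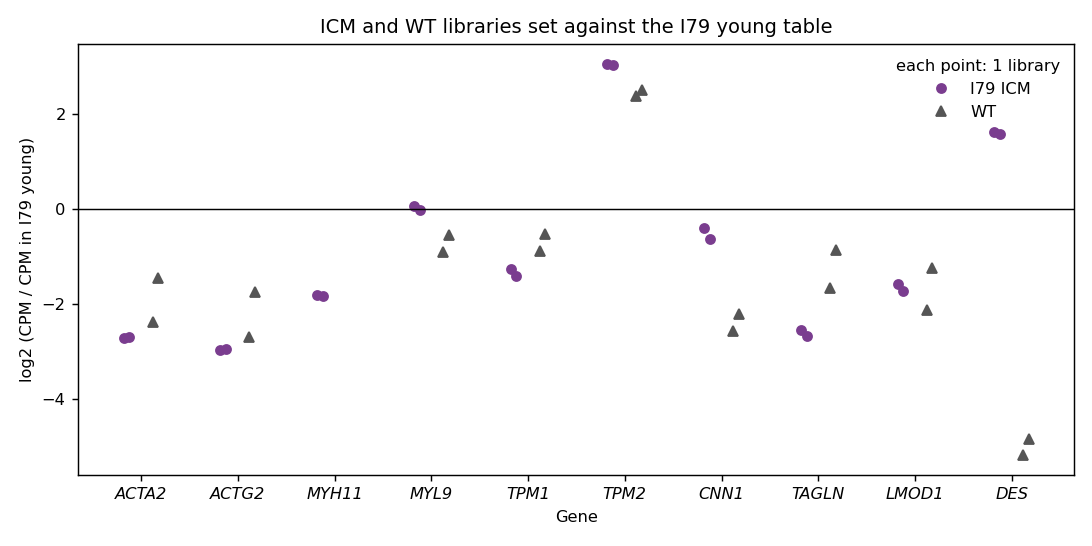
Log2 ratio of CPM over shared genes to the I79 young table for each ICM library (circles) and each WT library (triangles); MYH11 has no WT points because it is listed at 0 there. Both kinds of library lie below 0 for ACTA2, ACTG2, TPM1, CNN1, TAGLN and LMOD1 and above 2 for TPM2.

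ACTA2 was at 90.7 and 91.4 CPM in the ICM libraries, 597 CPM in I79 young, 273 CPM in I79 old and 114 and 218 CPM in WT, all over shared genes. The log2 ratio to I79 young was -2.71 for ICM and -1.92 for WT. ACTG2 was at 67.3 and 68.3 CPM with ICM and 528 CPM in I79 young, a log2 ratio of -2.96 against -2.22 for WT. TAGLN, at 150 and 139 CPM with ICM and 882 CPM in I79 young, had log2 ratios of -2.61 and -1.27. With all reads both ICM libraries lay below both WT libraries for TAGLN, ACTA2 and ACTG2. For the actins this order depended on the reads counted. With coding reads of ICM alone the mean ratios were -2.33 for ACTA2 and -2.44 for ACTG2. The first WT library, with all its counts, gave -2.38 and -2.70. TAGLN kept the order, at -2.96 against -1.67 in the first WT library.

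MYL9 (796 and 751 CPM with ICM, 760.1 CPM in I79 young) and CNN1 (48.2 and 41.5 CPM, and 63.9 CPM in I79 young) differed least, with log2 ratios of 0.03 and -0.51, where WT gave -0.72 and -2.39. TPM1 had a log2 ratio of -1.34 with ICM and -0.71 in WT, and LMOD1 -1.66 and -1.69. MYH11, at 10.4 and 10.2 CPM with ICM and 36.8 CPM in I79 young, gave -1.83. TPM2 reached 1546 and 1510 CPM with ICM against 184 CPM in I79 young, a log2 ratio of 3.05, and WT gave 2.44. The level of TPM2 thus set the estimated-count tables apart from both of the other kinds.

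Transcript regions showed how the ICM reads of the members were spread. Over all genes 61.1% and 61.9% of reads fell in coding regions and 25.3% and 24.2% in 3′ untranslated regions. ACTA2 had 3 and 1 reads of 1168 and 972 in its 3′ untranslated region and ACTG2 none of 866 and 725, which allows a share of up to 0.346% and 0.414% (3 reads of the total). DES had 1 and 2 of 264.5 and 211 there, although it stood at 20.5 and 19.9 CPM against 6.57 CPM in I79 young. In contrast 42.8% and 44.1% of MYL9 reads and 36.03% and 35.5% of TAGLN reads were in the 3′ untranslated region. With coding reads of the ICM libraries alone, the MYL9 ratio turned from 0.03 to -0.84 and the ACTA2 ratio was -2.33.

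The genes around the members were followed as lists. In HMGB2 KD the 8 tested members had a median log2 fold change of 1.42, and all 15338 genes one of 0.0018. Among 14 tested thin filament and regulatory chain partners 5 were called, all higher, with a median of 0.42. They were CNN2 (1.04), the actin- and myosin-binding caldesmon CALD1 (0.89), SMTN (0.74), CNN3 (0.71) and the tropomyosin TPM3 (0.65). Of 5 tested nonmuscle and other actins and myosins only the cytoplasmic gamma actin ACTG1 was called (0.86; list median 0.70).

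Of 17 tested focal adhesion and cross-linker genes 3 were called higher, TGFB1I1 (1.04), PDLIM7 (0.84) and PDLIM5 (0.65), with a median of 0.59. Of 10 tested matrix markers of myofibroblasts 7 were called higher and 1 lower (median 0.87), led by POSTN (1.502), COL5A1 (1.20), CTHRC1 (1.12), COL1A1 (1.00) and FN1 (0.88), with COL3A1 at -1.18. The DESeq2 Wald test called 6 of these markers, among them POSTN, CTHRC1, FN1 and COL3A1, but neither COL5A1 nor COL1A1.

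**Figure D5:**
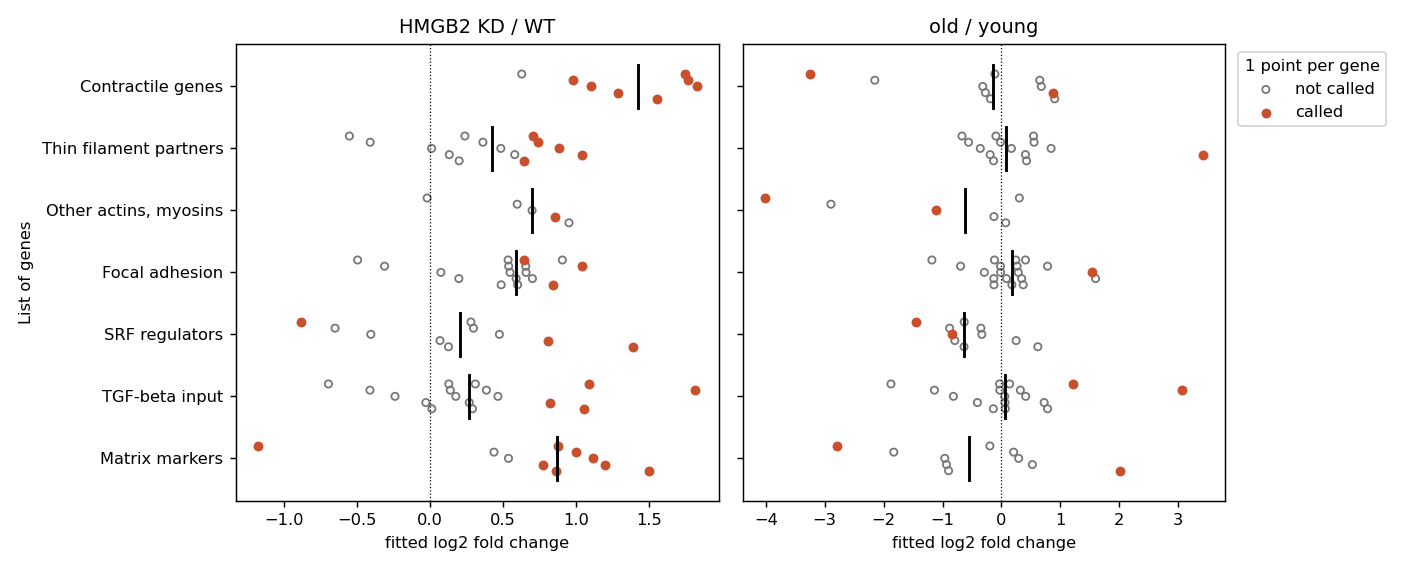
Fitted log2 fold change of each tested gene by list, HMGB2 KD against WT on the left and old against young on the right, with filled points for called genes and a black bar for the list's median. On the left 7 of 8 contractile genes are called, all above 0, with a median of 1.42; on the right 1 is called above and 1 below 0, with a median of -0.15.

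In the knockdown SRF was at 78.8 and 86.2 CPM for WT and at 74.7 and 106 CPM after knockdown, with a log2 fold change of 0.13 (SE 0.16, edgeR adjusted p 0.691). MYOCD, the coactivator myocardin, rose from 36.5 and 54.9 to 75.6 and 84.3 CPM, by 0.81 (SE 0.17, edgeR adjusted p 0.00679). MRTFA (0.48, adjusted p 0.0536 by edgeR) and MRTFB (-0.65, adjusted p 0.0193 by edgeR) were not called. Of the 10 SRF regulators listed, 2 were called higher, MYOCD and GATA6 (1.39), and 1 lower.

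Among ligands of the TGF-beta family TGFB1 rose from 131 and 134 to 241 and 325 CPM, by 1.09 (SE 0.16, edgeR adjusted p 0.000536). TGFB2 and TGFB3, at -0.24 and -0.70, were not called (edgeR adjusted p 0.366 and 0.128). LTBP2 rose by 1.06 and THBS1 by 0.83. In all, 4 of 17 genes of this list were called, all higher, with a median of 0.27. The DESeq2 Wald test called 3, among them TGFB1 and THBS1 but not LTBP2. CCN2, a matricellular target of both TGF-beta and mechanical signals, differed by 0.39 and was not called (edgeR adjusted p 0.0999).

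In old against young the median log2 fold change was -0.15 over the 10 members and -0.0099 over all genes. MYOCD fell from 166 to 53.5 CPM (I79) and from 124 to 51.5 CPM (I10), by 1.46 on the log2 scale (SE 0.13, edgeR adjusted p 0.00483), and PRRX1 (-0.83) was also called lower, while 8 of 10 SRF regulators were below 0. SRF (-0.35), MRTFA (-0.33) and MRTFB (-0.79) were not called (edgeR adjusted p 0.0695, 0.203 and 0.0136). Thus MYOCD was called in both comparisons, higher in HMGB2 KD and lower in old cells.

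Ligands TGFB1 (0.07), TGFB2 (-1.14) and TGFB3 (-1.88) were not called in old cells (edgeR adjusted p 0.642, 0.0189 and 0.0136), and neither was CCN2 (0.78, edgeR adjusted p 0.0503). In that list edgeR called 2 of 17 genes, both higher, among them the receptor TGFBR2 (1.22). The DESeq2 Wald test called 5, among them TGFBR2, CCN2, LTBP1 and TGFB2. Among partners of the filament TMOD1, which caps the slow-growing end of actin, was called higher (3.43). The cardiac actin ACTC1 (-4.02) and the nonmuscle myosin heavy chain MYH10 (-1.11) were called lower, as was POSTN (-2.80) of the matrix markers. LOX (2.01) and SYNPO2 (1.54) were called higher.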

How the data were processed

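Poly(A) RNA-seq of IMR90 cells was analysed from 14 samples in 7 groups, taken from the sample titles. Per the labels, the submitters' processing notes name STAR 2.6.0c, featureCounts, DESeq2, deepTools and GRCh37. Raw counts per gene were deposited for each WT and HMGB2 KD library; rows that name no gene (16.9% to 18.0% of the totals) stayed out. For old and young groups the deposited values were estimated counts and TPM per transcript in 1 table per group, treated as a pooled value. Estimated counts were summed per gene through GENCODE 44 lifted to GRCh37 (97.2% to 97.4% of counts matched) and rounded. The ICM tables, as deposited, hold expected counts for 5′ untranslated, coding, 3′ untranslated and noncoding parts of each gene, with fractions for reads that were split; aligner and build of these tables are not given in the sources used here.

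Contractile genes and lists were chosen with earlier results of these data known. Genes were named by a rule: all members, SRF, MYOCD, MRTFA, MRTFB, the TGF-beta ligands and CCN2 always, and other listed genes where called, at most 6 per list and comparison. Some listed genes and 1 list are not reported here.

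Tests of counts used the quasi-likelihood method of edgeR 4.0.16 (R 4.3.3) with TMM scaling, filterByExpr and Benjamini-Hochberg adjustment: HMGB2 KD against WT without a covariate, and old against young with isolate as a covariate. Nothing states that the replicates came from separate cultures, so p-values measure the spread between these samples. Each SE was derived from the test, as the absolute log2 fold change divided by the square root of its F statistic. CPM of members is TMM-scaled; beside ICM it is scaled to totals over shared genes, and ratios used a prior count of 2. Within an isolate log2 ratios used the same prior, and intervals are 95% exact Clopper-Pearson, rescaled by library size. Alternatives were DESeq2 1.42.0, plain totals, no filter, other thresholds and covariates, and left-out libraries. In synthetic tables in which 200 genes had been shifted by 1.5 (log2), 74.5% were found with 3 false calls for the knockdown comparison (15338 genes), and 70.5% with 12 for old against young (15116 genes).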

Additional observations from a re-analysis of the deposited data

Results flagged for a closer look

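The 3 members below had opposite signs of the old to young ratio in the isolates, with the counting intervals of both ratios off 0. For ACTA2 the log2 ratio of old to young was lower in I79 than in I10 by a difference of -1.37, for ACTG2 by -1.19 and for TPM2 by -0.56. The difference between isolates was not tested, since each group of old and young cells had 1 table.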

How the results depend on the processing

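After HMGB2 knockdown each of the 8 tested members kept its direction under all alternatives, with 6 to 8 of them called except where a replicate was left out (4 to 8). Leaving out 1 library each in turn gave between 312 and 999 genes called in place of 797, the lowest without HMGB2 KD replicate 2. The replicate numbers pair samples by name only (the correlation of replicate differences between WT and HMGB2 KD was 0.124 over genes, with 2 pairs). The fit with the replicate block called 1243 genes and 8 members, TPM2 included. Over the alternatives the ACTA2 log2 fold change ranged from 1.43 to 2.37 and that of LMOD1 from 0.73 to 1.61.

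For old against young, plain library totals moved the median of all genes by -0.21 and gave 3130 called genes in place of 1447. An adjusted p under 0.05 gave 3860 genes and 6 members, and no filter on low counts 4251 and 6. The DESeq2 Wald test and counts scaled from TPM each called 4 members, in place of 2. LMOD1 and MYH11 were called in all 6 refitted alternatives. Within I10 alone ACTA2 (0.41), ACTG2 (0.48) and TPM2 (0.090) were reversed against the pooled sign. The causes were not tested.

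For ICM against I79 young the median over the members was -1.31 with coding reads only and 0.039 with WT as the control (9 members), and from -1.57 to -1.42 with 1 ICM library. With WT as the control CNN1 (1.88) and LMOD1 (0.039) were reversed, and MYH11, listed at 0 in WT, gave no ratio. MYL9 was reversed with coding reads only (-0.84) and without ICM replicate 1 (-0.017, against 0.067 without replicate 2). MYH11 and DES had the fewest counts of the members in every table.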
